A study of Mus musculus with 23 samples.

Results

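Leukocyte-endothelium adhesion molecules are the surface proteins through which blood cells and vessel walls hold on to each other, and 8 of their genes were followed here: Icam1, Vcam1, Selp, Sele, Selplg, Cd44, Cd47 and Alcam. They were found on the array by the accession of each probe, and where a gene had several probes, the brightest on average was used. All 8 members had a probe among 20145 named genes, and 7 of them were among the 15202 genes bright enough to be tested, the exception being Sele.

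RNA was hybridised in 1 colour to Agilent arrays, which give the brightness of each spot, here on the log2 scale after normalization, so that a difference of 1 is a 2-fold change. All cells came from a single mouse ES cell line, labelled C57BL/6, in which doxycycline (Dox) switches on human RUNX1-ETO, the fusion protein of t(8;21) leukaemia, from a tetracycline-responsive promoter while RUNX1 itself is wild type, so that uninduced cells carry the transgene too. The 3 early stages came from blast cultures and were sorted on day 2, either uninduced or with 0.1 μg per ml Dox from day 1. Haemogenic endothelium (HE) was KIT+Tie2+CD41−, HE2 was KIT+Tie2+CD41+ and progenitors were KIT+Tie2−CD41+. Myeloid progenitors were floating day 2 progenitors moved into medium with SCF, Flt3 ligand and thrombopoietin, and were collected on day 3 without Dox or after 12 h of it. Each group had 3 arrays, except the uninduced and the induced progenitors with 2 each. A further array of uninduced progenitors, whose labels call it a technical replicate, was kept out of the tests. The labels call the others biological replicates (induced myeloid progenitor array 3 is also called a technical one), without naming separate cultures, so P values measure the spread between these arrays.

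ICAM1 and VCAM1 are immunoglobulin-like proteins that endothelium displays and that integrins of leukocytes bind. P-selectin (Selp) and E-selectin (Sele) are lectins that catch rolling leukocytes by their sugars, and PSGL-1, encoded by Selplg, is the main leukocyte ligand of P-selectin. CD44 binds hyaluronan, CD47 binds thrombospondin and the SIRPα receptor of macrophages, and ALCAM binds CD6 and itself. During the endothelial-to-haematopoietic transition a flat endothelial cell becomes a round, free blood cell, and P-selectin is also stored in platelets and megakaryocytes.

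Among the stages Kit was bright throughout, whereas Itga2b, the CD41 gene, read 9.49 to 11.46 in uninduced HE and 11.19 to 12.51 in uninduced HE2 and did not differ past the threshold (adjusted P = 0.351), although HE was sorted as CD41−. With Dox in HE it fell by 3.21, and its mean in induced HE2, sorted as CD41+, was 9.35, compared with 10.7 in uninduced HE. Tek, the Tie2 gene, had a mean of 8.67 in uninduced and 11.1 in induced progenitors, although both were sorted as Tie2−. In progenitors 0 of the 3 sort markers passed the threshold with Dox, although Tek read 8.63 to 8.71 without and 10.91 to 11.29 with it. The sorts read surface protein, whereas these values are RNA. The mean of Tek was 10.67 in uninduced HE2, and 9.2 without and 12.27 with Dox in myeloid progenitors. Runx1t1, the mouse gene of the ETO part, rose with Dox by 2.08 in HE2 and by 3.96 and 2.06 in progenitors and myeloid progenitors. It was 1.24 higher in HE, which missed the limit on P (adjusted P = 0.0155 in limma). Uninduced means of Runx1t1 were 7.71 for progenitors, 9.88 for HE2, 10 for the myeloid stage and 10.81 for HE. Induced means lay closer together, at 11.67, 11.96, 12.06 and 12.05 in that order. Whether its probe reads the human transgene or only the mouse gene was not tested. Between 48.8 and 78.4% of spots per array were well above background. The arrays lay on 3 slides. All myeloid progenitor arrays shared slide 3 with induced progenitor array 2, whereas slides 1 and 2 held HE, HE2 and the other 3 progenitor arrays in the fit. For 6 of 23 arrays, induced arrays 2 and 3 of HE, HE2 and myeloid progenitors, the authors' own log2 column matched the other one's scanner file best. Those 2 numbers are therefore uncertain within each group. Values are given here in the order of the scanner files, and group means are not affected.

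A gene was called past the threshold where it changed by 2-fold or more with an unadjusted P no higher than 0.001 in limma, and adjusted P values are over all genes tested. Over the 4 stages, 7 of 28 changes of a member with Dox passed. In HE 2 of 7 members passed, compared with 7.09% of all genes. In HE2 3 of 7 passed, compared with 7.22%, and in progenitors 2 of 7, compared with 3.73%. In myeloid progenitors 0 of 7 passed, where 6.31% of all genes did, and 1 had an adjusted P of at most 0.05. The calls came from 3 genes: Cd44 and Selplg were lower with Dox and Cd47 higher.

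**Figure D1:**
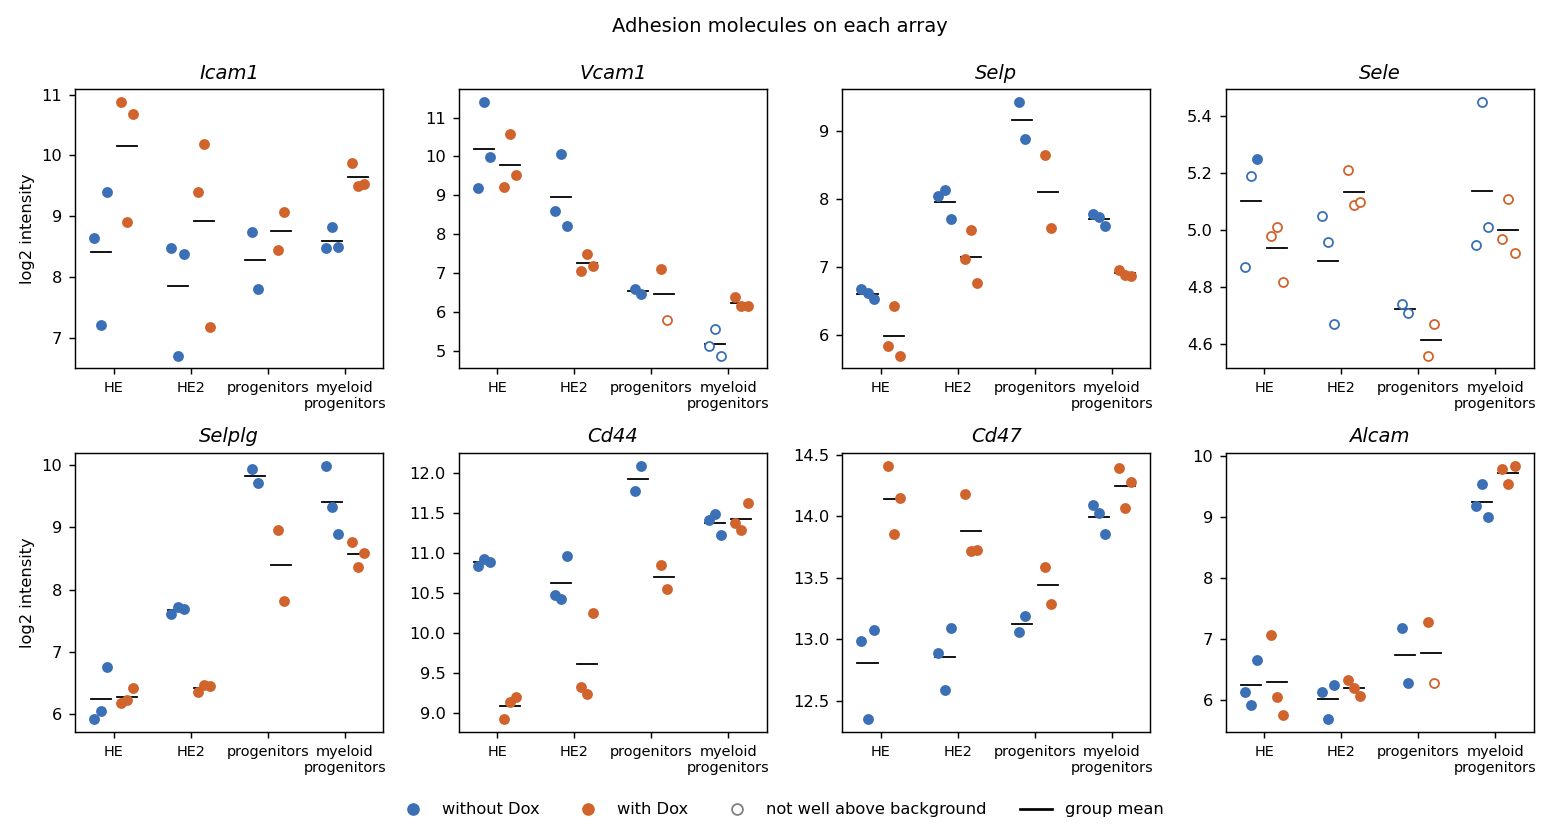
Log2 intensity of the 8 genes on each array, by stage along the x axis, with uninduced arrays in blue, induced arrays in orange and group means as bars. Open circles were not well above background, and each panel has its own y axis. With Dox in HE, HE2 and progenitors, Cd44 lay below its uninduced arrays and Cd47 above them, by little in progenitors, and Sele was dim everywhere.

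RefSeq promoter windows on GRCm38.p6, from 250 bases before to 50 bases after a start site, were at hand for 6 of the 8 members. They are shown for Cd44 and Cd47, which passed the threshold in opposite directions in HE and HE2, and for Icam1, which holds the most matches. The windows were read on both strands for the RUNX core TGTGGT, the ETS core CCGGAA, the GATA core AGATAA, the AP-1 site TGANTCA and the NF-κB consensus. Capitals mark the GATA core in Cd44 and the ETS core in Cd47 and Icam1.
Cd44, chr2:102901616-102901915, minus strand: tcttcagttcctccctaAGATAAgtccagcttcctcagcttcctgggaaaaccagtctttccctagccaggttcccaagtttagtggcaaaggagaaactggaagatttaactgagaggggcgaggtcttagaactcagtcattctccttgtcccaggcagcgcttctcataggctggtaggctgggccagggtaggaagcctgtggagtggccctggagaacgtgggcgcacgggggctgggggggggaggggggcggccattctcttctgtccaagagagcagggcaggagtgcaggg
Cd47, chr16:49855404-49855703, plus strand: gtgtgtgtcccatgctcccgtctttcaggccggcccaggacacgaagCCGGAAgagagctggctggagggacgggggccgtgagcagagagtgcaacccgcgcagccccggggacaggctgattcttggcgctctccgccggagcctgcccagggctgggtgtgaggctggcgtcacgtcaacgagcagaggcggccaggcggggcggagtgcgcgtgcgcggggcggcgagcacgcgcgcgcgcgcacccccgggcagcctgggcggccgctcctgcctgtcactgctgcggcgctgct
Icam1, chr9:21015690-21015989, plus strand: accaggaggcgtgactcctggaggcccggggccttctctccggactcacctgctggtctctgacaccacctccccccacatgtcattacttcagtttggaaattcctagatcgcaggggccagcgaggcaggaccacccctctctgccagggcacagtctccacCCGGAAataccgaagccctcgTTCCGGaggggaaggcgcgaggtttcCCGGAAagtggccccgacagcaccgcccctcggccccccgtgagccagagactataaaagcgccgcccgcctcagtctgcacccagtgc

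Icam1 held 3 ETS cores, at -86, -65 and -39 from its start site, the middle one on the opposite strand. Cd47 held 1, at -203 from its own, and a nearby start site listed for Cd47 shares that match. Of all 32851 windows, 14.9% held an ETS core and 11.2% a GATA core, which Cd44 held once, at position -233 from its start. Selp and Sele each held 1 AP-1 site, present in 7.81% of all windows. The RUNX core, in 16.8% of all windows, was in 0 of the 6 members with a window. An exact match to a strict NF-κB consensus, in 5.80%, was also in 0 of 6. Only exact matches were counted, so a window without one can still hold a site that differs from these letters. A match is a description of letters and no measure of binding.

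Cd44 gave the largest called change with Dox among the members. In HE its probe read 10.84, 10.93 and 10.89 without Dox and 8.92, 9.14 and 9.20 with it, so that the induced arrays lay far below a tight uninduced group. It fell by 1.80 (SE 0.224; 3.48-fold; adjusted P = 2.13e-05 in limma). On slide 1 the difference was -1.96 and on slide 2 it was -1.72. In HE2 Cd44 read 10.48, 10.43 and 10.96 without Dox and 9.33, 9.24 and 10.25 with it. The induced arrays again lay below all uninduced ones, and Cd44 fell by 1.02 (SE 0.224; adjusted P = 0.00383). This change sat at the 2-fold limit, and without any of uninduced array 3 or induced arrays 1 and 2 of HE2 it was -0.85, -0.88 and -0.84 and no longer called.

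In progenitors Cd44 read 11.77 and 12.09 without Dox and 10.85 and 10.55 with it. It fell by 1.23 (SE 0.275; adjusted P = 0.0105). With the slide as a block the change was -0.93 (adjusted P = 0.177), and within slide 1, which holds 1 array of each, it was -0.92. Without uninduced array 2 of the progenitors it was -1.07 and without induced array 2 it was -1.08, and neither was called. In myeloid progenitors Cd44 read 11.41, 11.49 and 11.22 without Dox and 11.37, 11.29 and 11.63 with it. The groups overlapped, with a difference of 0.06 (95% confidence interval -0.42 to 0.53). Tested as an interaction term, the response in myeloid progenitors exceeded that in HE by 1.86 (SE 0.317; adjusted P = 0.00118), where 4.72% of all genes passed. The stages differ in the length of induction, the culture medium and, between myeloid progenitors and the others, the slide, which cannot be told apart here.

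Of 4 probes for Cd44, the next brightest gave -1.91 in HE and -0.78 in HE2, with -0.81 in progenitors and -0.13 in the myeloid stage. The 2 dimmest gave -0.71 and -0.41 in HE and between -0.01 and 0.28 in HE2 and progenitors. With the mean of all 4 probes the change in HE2 was -0.44 (adjusted P = 0.131) and that in progenitors -0.41 (adjusted P = 0.351), below the threshold.

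**Figure D2:**
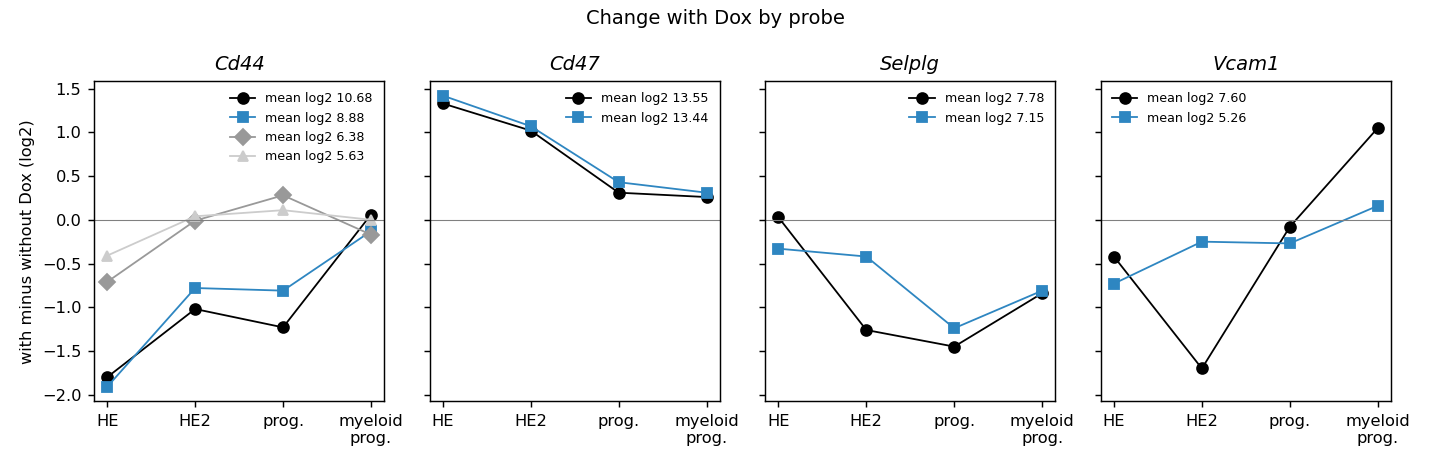
Change with Dox (with minus without, log2) in each stage for every probe of the 4 genes with more than 1 probe, the legend giving each probe's mean log2 intensity and black the probe used. Both Cd47 probes and the 2 brighter Cd44 probes ran close together, whereas the dimmer probes of Cd44, Selplg and Vcam1 gave smaller changes in HE2.

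Cd47, whose protein marks a cell as not to be eaten, was higher with Dox. In HE it read 12.99, 12.35 and 13.08 without Dox and 14.41, 13.86 and 14.15 with it, and rose by 1.33 (SE 0.209; 2.52-fold; adjusted P = 0.000196). In HE2 it read 12.89, 12.59 and 13.09 without Dox and 14.18, 13.72 and 13.73 with it, and rose by 1.02 (SE 0.209; adjusted P = 0.00219). All induced arrays lay above all uninduced ones in both stages. The rise was 1.74 and 0.93 on slides 1 and 2 in HE, and 1.44 and 0.64 in HE2. The other Cd47 probe gave 1.42 in HE and 1.07 in HE2. Without uninduced array 2 of HE2 the rise there was 0.89 and without induced array 1 it was 0.87, no longer called. Under 75th percentile scaling it was 0.93 and with the authors' log2 values 1.00, just under 2-fold and not called either.

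In progenitors Cd47 read 13.06 and 13.19 without Dox and 13.59 and 13.29 with it, and the difference of 0.31 did not pass (adjusted P = 0.541). In myeloid progenitors it read 14.09, 14.03 and 13.86 without Dox and 14.39, 14.07 and 14.28 with it, a difference of 0.26 (adjusted P = 0.521). The uninduced arrays of myeloid progenitors were thus near the level of induced HE. The response in myeloid progenitors minus that in HE was -1.08 (SE 0.296; unadjusted P = 0.00191, adjusted P = 0.0325), which missed the threshold on P. With the replicate block, 75th percentile scaling or the mean of both probes this term was called.

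Among the selectins, Selp was lower with Dox in every stage but passed in none with all arrays. In HE it read 6.68, 6.61 and 6.53 without Dox and 5.84, 6.43 and 5.69 with it, a difference of -0.62 (adjusted P = 0.123). In HE2 it read 8.05, 8.13 and 7.70 without Dox and 7.12, 7.54 and 6.76 with it, a difference of -0.82 (adjusted P = 0.0343). The induced arrays lay below all uninduced ones in both stages. In progenitors it read 9.43 and 8.89 without Dox and 8.65 and 7.57 with it, a difference of -1.05 (adjusted P = 0.0633), which was -1.58 and called without induced array 1, but -0.51 without induced array 2 and -0.58 (adjusted P = 0.556) with the slide as a block. In myeloid progenitors it read 7.78, 7.73 and 7.60 without Dox and 6.96, 6.88 and 6.87 with it, a difference of -0.80 (adjusted P = 0.0468). The groups did not overlap there either, and the difference was under 2-fold. Sele stayed between 4.56 and 5.45 on all arrays and was well above background on 1 of the 22 in the fit, an uninduced HE array, so no change could be measured.

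Selplg, the leukocyte partner of P-selectin, was dim in HE, where it read 5.91, 6.05 and 6.75 without Dox and 6.17, 6.22 and 6.41 with it, a difference of 0.03 (95% confidence interval -0.57 to 0.62). In HE2 it read 7.60, 7.72 and 7.69 without Dox and 6.35, 6.46 and 6.44 with it. The 2 groups were tight and apart, and Selplg fell by 1.26 (SE 0.282; adjusted P = 0.00441). The induced HE2 arrays lay within the range of uninduced HE. Without any of the 6 HE2 arrays the change was between -1.29 and -1.22 with an adjusted P of 0.012 to 0.0173, and the unadjusted P was just above 0.001. With an offset of 50 the change was -0.99, just under 2-fold and not called. The other probe gave -0.42 in HE2, and with the mean of both it was -0.84 (adjusted P = 0.0804).

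In progenitors Selplg read 9.94 and 9.72 without Dox and 8.96 and 7.82 with it. It fell by 1.45 (SE 0.346; adjusted P = 0.017), and its second probe gave -1.24. With the slide as a block the change was -0.78 (adjusted P = 0.419), within slide 1 it was -0.98, and without induced array 2 it was -0.88 (adjusted P = 0.298). It was -1.34 without uninduced array 1 and -1.55 without uninduced array 2, and with the additional uninduced array kept it was -1.14, none of them called. In myeloid progenitors Selplg read 9.99, 9.32 and 8.89 without Dox and 8.76, 8.36 and 8.58 with it, a difference of -0.84 that did not pass (adjusted P = 0.0571). The difference in response between HE2 and HE was -1.28 (SE 0.399; adjusted P = 0.184), a comparison in which 0 of 7 members and 1.34% of all genes passed.

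Lists of marker genes were read beside these changes. In HE2 the mean level of 5 macrophage markers was 7.97 to 8.64 on uninduced arrays and 6.41 to 7.53 on induced ones, and Cd14 and Csf1r changed by -2.30 and -1.77. Of 6 blood markers, 1 rose and 2 fell in HE2, and 0 rose and 1 fell in progenitors. Spi1, a myeloid transcription factor, fell by 2.73 in HE2 and by 2.23 in progenitors. Gata1, an erythroid and megakaryocyte one, rose by 2.07 in HE2 and was 1.51 higher in progenitors (adjusted P = 0.0727). In progenitors the same 5 markers ranged from 9.47 to 10.10 without Dox and 8.80 to 9.39 with it, and 0 of 5 passed. In whole sorted populations, fewer cells of a type and less RNA per cell cannot be told apart. The part of these markers in the change of Selplg was not tested.

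Mesenchymal markers were read beside Cd44 and Vcam1. The mean level of 8 such genes was 10.79 to 11.82 in uninduced and 10.29 to 10.66 in induced HE, and 9.89 to 10.85 and 8.81 to 9.11 in HE2. In HE 3 of the 8 fell and Col3a1 rose, and in HE2 4 fell. In HE2 Acta2 fell by 2.99, and Pdgfrb fell by 2.57. The epithelial genes Krt8 and Krt18 changed in HE2 by -3.70 and -2.67. In progenitors, where Cd44 also fell, the mean of the 8 was 8.83 to 8.97 without Dox and 8.49 to 9.23 with it, and 1 rose and 0 fell. In myeloid progenitors it was 7.50 to 8.15 without Dox and 8.25 to 8.87 with it. Their part in the changes of Cd44 and Vcam1 was not tested.

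Icam1 was higher on average with Dox in all 4 stages, with a wide spread between arrays. In HE it read 8.64, 7.21 and 9.39 without Dox and 10.88, 8.90 and 10.68 with it, a difference of 1.74 (SE 0.692; adjusted P = 0.106). It was 2.96 on slide 1 and 0.40 on slide 2. In HE2 it read 8.47, 6.70 and 8.38 without Dox and 9.39, 10.19 and 7.18 with it, a difference of 1.07 (95% confidence interval -0.38 to 2.53). The difference in HE was 1.14 without uninduced array 2 and reached 2.37 without induced array 2, with no call. That in HE2 was 0.50 without uninduced array 2, 0.44 without induced array 2 and 1.94 without induced array 3. In progenitors it read 8.74 and 7.80 without Dox and 8.44 and 9.07 with it, and the groups overlapped in all of these early stages. In myeloid progenitors it read 8.47, 8.82 and 8.49 without Dox and 9.88, 9.50 and 9.53 with it. All induced arrays lay above the uninduced ones, by 1.04 (adjusted P = 0.399 with the spread shared by all groups). When only these 6 arrays were fitted the adjusted P was 0.00362 and Icam1 was called.

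Vcam1 passed with Dox in no stage. In HE it read 9.20, 11.40 and 9.98 without Dox and 9.22, 10.58 and 9.52 with it, a difference of -0.42 (adjusted P = 0.695). In HE2 it read 8.60, 10.05 and 8.21 without Dox and 7.06, 7.50 and 7.19 with it, with the induced arrays below all uninduced ones. The difference of -1.70 (SE 0.51; adjusted P = 0.0272) missed the threshold, with an unadjusted P of 0.00371, and was -2.27 on slide 1 and -0.86 on slide 2. A second, dimmer probe gave -0.25. In progenitors it read 6.59 and 6.46 without Dox and 7.10 and 5.80 with it, where the last was not well above background.

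In myeloid progenitors Vcam1 read 5.11, 5.55 and 4.87 without Dox, not well above background on any of these arrays, and 6.37, 6.16 and 6.15 with it. The induced mean was therefore at least 1.80-fold above the uninduced one, a bound that leaves out the spread between arrays. The change did not pass (adjusted P = 0.207 in limma), but was called when only these 6 arrays were fitted (adjusted P = 0.00628). The second, dimmer probe gave 0.16. The response of Vcam1 in myeloid progenitors was also set against that in HE2, a term added after these values were seen. It missed the threshold (adjusted P = 0.0525) but passed without uninduced HE array 1 or 2, induced HE array 2 or uninduced HE2 array 3, and also under 75th percentile scaling, with the mean of both probes and with only the groups compared. Since uninduced myeloid progenitors were not well above background, its size is not given. In this comparison 0 of 7 members and 2.19% of all genes passed.

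Alcam did not pass in any stage. In HE it read 6.14, 5.93 and 6.67 without Dox and 7.07, 6.05 and 5.77 with it, and in HE2 it lay between 5.69 and 6.33 on all 6 arrays. In progenitors it read 7.19 and 6.29 without Dox and 7.28 and 6.28 with it. In myeloid progenitors it read 9.19, 9.54 and 9.01 without Dox and 9.79, 9.55 and 9.84 with it, a difference of 0.48 (95% confidence interval -0.21 to 1.17). Between progenitors and HE2 the difference in response passed for 0 of 7 members, and for 0.645% of all genes.

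**Figure D3:**
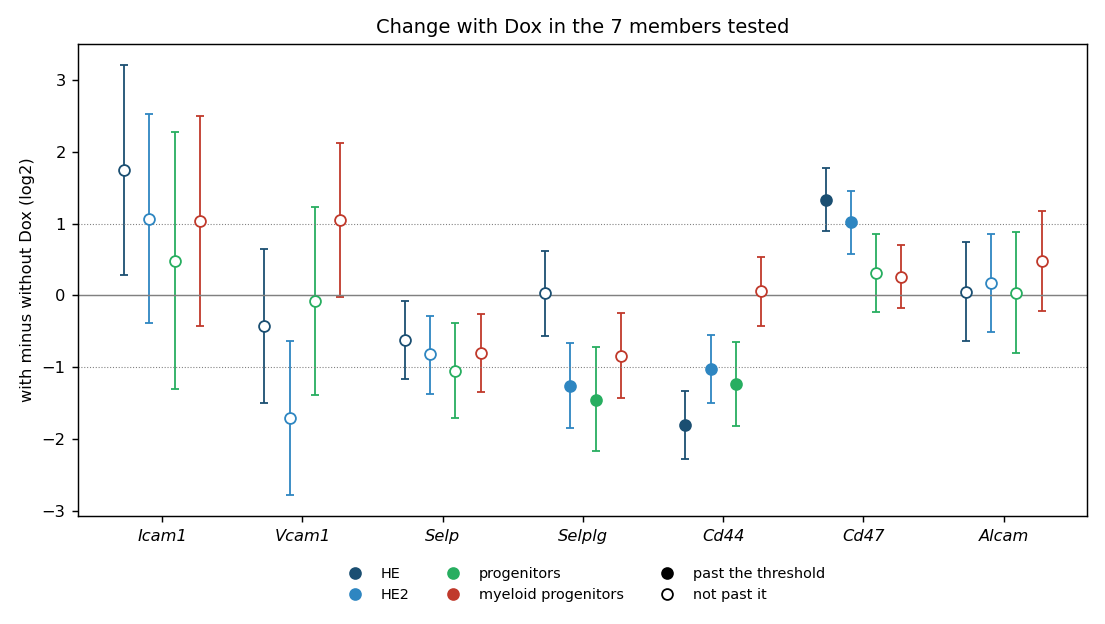
Change with Dox (with minus without, log2) in each stage for the 7 members tested, with 95% confidence intervals from limma; filled points passed the threshold and dotted lines mark 2-fold. Cd44 fell in HE, HE2 and progenitors, Cd47 rose in HE and HE2, and intervals of Icam1 and Vcam1 were wider than those of Cd44 and Cd47.

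The stages were then compared within uninduced and within induced cells, to see when the members change along the path from endothelium to blood. These steps share their arrays with the comparisons above. Without Dox, 2 of 7 members passed from HE to HE2, compared with 5.07% of all genes, 4 of 7 from HE2 to progenitors, compared with 5.39%, and 2 of 7 from progenitors to myeloid progenitors, compared with 13.9%. With Dox the counts were 2 of 7 at each step, compared with 3.10%, 7.36% and 7.37%.

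Selp and the brighter Selplg probe rose along the early steps without Dox. Uninduced Selp had a mean of 6.61 ± 0.0785 (SD, n = 3) in HE, 7.96 ± 0.227 (n = 3) in HE2, 9.16 ± 0.383 (n = 2) in progenitors and 7.70 ± 0.0904 (n = 3) in myeloid progenitors. It rose by 1.36 from HE to HE2 (adjusted P = 0.00216) and by 1.20 to progenitors (adjusted P = 0.0118), then fell by 1.46 (adjusted P = 0.000933). With the slide as a block the last step was -0.45 (adjusted P = 0.749). With the replicate block the step to progenitors was 1.07 and was not called. Leaving out uninduced progenitor array 1 ended both calls, with 0.93 and -1.19, and so did uninduced HE2 arrays 1 and 3 for the step to progenitors, with 1.24 and 1.07.

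Uninduced Selplg had a mean of 6.24 ± 0.453 in HE and 7.67 ± 0.0639 in HE2, then 9.83 ± 0.152 in progenitors and 9.40 ± 0.554 in myeloid progenitors. It rose by 1.43 from HE to HE2 (adjusted P = 0.00282) and by 2.16 to progenitors (adjusted P = 0.000141), and the last 2 stages did not differ past the threshold. The second Selplg probe, well above background on all 22 arrays, went the other way from HE to HE2 (-0.51), and with the mean of both probes this step was 0.46 (adjusted P = 0.442), so that a rise there rests on 1 probe. With Dox the first of these steps was 0.15 (adjusted P = 0.863) and the next was 1.97 (adjusted P = 0.000327). Selp rose with Dox by 1.15 from HE to HE2 (adjusted P = 0.011) and fell by 1.21 from progenitors to myeloid progenitors (adjusted P = 0.00707). From HE2 to progenitors with Dox it was 0.97 higher (adjusted P = 0.0296), which was 1.51 and called without induced progenitor array 2 but 0.44 without induced progenitor array 1. The first was not called without induced array 1 or 3 of HE or induced array 1 or 2 of HE2, with 0.96 to 1.16, and the last was -0.67 with the slide as a block or without induced progenitor array 1 and -1.20 to -1.24 without any induced myeloid progenitor array, and was not called.

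Vcam1 fell along the path. Without Dox its mean was 10.19 ± 1.12 in HE and 8.96 ± 0.972 in HE2, then 6.53 ± 0.0877 in progenitors and 5.18 ± 0.342 in myeloid progenitors. The step from HE2 to progenitors passed with a fall of 2.43 (SE 0.57; adjusted P = 0.00985). It was -1.88 without uninduced HE2 array 2, and -2.49 and -2.37 without either uninduced progenitor array, and was then not called. With the replicate block and the uncertain induced numbers 2 and 3 exchanged it was -2.42 (adjusted P = 0.0248), not called either. The dimmer probe gave -0.08 at this step. The mean of uninduced progenitors was at least 2.21-fold above that of uninduced myeloid progenitors, a bound that leaves out the spread between arrays (adjusted P = 0.0776). With Dox Vcam1 fell one step earlier, by 2.52 from HE to HE2 (adjusted P = 0.0055), and the change was -2.12 without induced HE array 2, when it was not called. The dimmer probe gave -0.29. The difference in response between HE2 and HE was -1.28 (adjusted P = 0.727), so that an earlier fall was not shown.

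Cd44 rose from HE2 to progenitors by 1.30 without Dox (adjusted P = 0.00207) and by 1.09 with it (adjusted P = 0.00582). Its uninduced means were 10.89 ± 0.0485 in HE and 10.63 ± 0.292 in HE2, then 11.93 ± 0.229 in progenitors and 11.37 ± 0.141 in myeloid progenitors, and only the middle pair differed past the threshold. The call without Dox was lost without uninduced progenitor array 2 (1.14), and that with Dox without induced HE2 array 1 (0.95) or 2 (0.91) or without induced progenitor array 1 (0.94) or 2 (1.24). The call with Dox was also lost with the scan day as a block (1.24, adjusted P = 0.0208), under 75th percentile scaling (1.03) and with the mean of probes (0.89), and that without Dox with the mean of probes (0.86). Alcam was near its low level in the early stages, 6.25 ± 0.38, 6.03 ± 0.299 and 6.74 ± 0.639, and rose to 9.25 ± 0.273 in myeloid progenitors. It rose by 2.51 without Dox (adjusted P = 5.42e-05) and by 2.95 with it (adjusted P = 1.91e-05). With the slide as a block the rise was still called. Of the arrays fitted, only induced progenitor array 2 joins slide 3 to the other slides, so that result rests on it. It read 6.28 for Alcam and was not well above background. Cd47 was 0.87 higher at this step without Dox (adjusted P = 0.00865) and 0.81 higher with it (adjusted P = 0.0222), under 2-fold. With the additional array of uninduced progenitors the former was 1.00 and was called. Icam1 passed at no step.

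Over the 8 group means, the genes most like Selplg among those tested were Cd14 (Pearson's r = 0.997), Csk (r = 0.995) and Arhgap4 (r = 0.994). Those most like Cd44 were Emp3 (r = 0.956), Vmn2r4 (r = 0.945) and Lrrc19 (r = 0.944), and those most like Cd47 were N4bp2l1 (r = 0.989), Rnf113a2 (r = 0.978) and Tmem68 (r = 0.977). Among the members, Cd44 and Selplg correlated at 0.82, Icam1 and Cd47 at 0.82, and Vcam1 and Selplg at -0.81. These are descriptions over 8 points that share slides and normalization.

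Other genes of the same adhesion steps were read from 5 lists with 58 genes in all, of which 56 were tested. In HE 2 rose with Dox and 4 fell, and in HE2 11 rose and 1 fell. Progenitors had 5 that rose and 2 that fell, and myeloid progenitors 8 and 1. Of all 15202 genes, 714 rose and 364 fell in HE (7.09% in all), 786 and 312 in HE2 (7.22%), 460 and 107 in progenitors (3.73%) and 780 and 180 in myeloid progenitors (6.31%). Among 13 further immunoglobulin-like and junctional genes, with a median change of 0.12 in HE where all genes had -0.01, Madcam1, a ligand of the gut-homing integrin, fell by 1.91. In each later stage 3 of the 13 rose and 0 fell. Icam2, a ligand of the same leukocyte integrin as ICAM1, rose by 1.88 in HE2, by 3.21 in progenitors and by 2.97 in myeloid progenitors. Esam, an endothelial junction protein, rose by 1.38, 1.83 and 2.16. Madcam1 rose by 1.99 in progenitors. Beside them, the mean level of 8 endothelial markers was 11.59 to 12.59 in uninduced and 12.61 to 13.36 in induced HE2, 10.84 to 10.91 and 12.10 to 12.47 in progenitors, and 11.11 to 11.47 and 12.71 to 13.04 in myeloid progenitors. In HE their mean was 12.23 to 13.84 without Dox and 12.31 to 13.26 with it. There 0 rose and 1 fell, which was Vwf, with a mean of 10.15 without Dox and 7.29 with it. In HE2 1 rose and 0 fell, in progenitors 3 and 0, and in myeloid progenitors 5 and 1. Vwf also went against the mean in HE2, with 10.12 without Dox and 9.2 with it, and in myeloid progenitors, with 13.37 and 12.14. The 8 markers share Cdh5 and Pecam1 with the 13 genes, and the part of these markers was not tested.

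Of 14 genes for selectin ligands and their enzymes, 1 fell in HE, 2 rose and 1 fell in HE2, and 1 rose and 0 fell in each of the other stages. Emcn, an endothelial sialomucin that is also among the 8 endothelial markers, rose by 2.84 in HE2, by 3.42 in progenitors and by 2.97 in myeloid progenitors. B4galt1, a galactosyltransferase that builds selectin ligands, fell by 1.46 in HE and 1.01 in HE2, and St3gal6, a sialyltransferase, rose by 1.70 in HE2.

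Among the 7 integrin chains that bind ICAM1 or VCAM1, Itgb7 rose by 3.85 in HE and 2.04 in HE2. Itgax, a chain of myeloid cells, fell by 1.20 in progenitors and 1.32 in myeloid progenitors. The other 5 chains, Itgal, Itgam, Itgb2, Itga4 and Itgb1, passed in no stage. Of 11 tested partners of CD44, CD47 and ALCAM, 1 rose and 1 fell in HE, 4 rose in HE2, 1 rose in progenitors and 2 rose in myeloid progenitors. Ezr, a linker of CD44 to actin, rose by 1.93 in HE, where Thbs1, the CD47 ligand thrombospondin, fell by 1.51. Lyve1, a hyaluronan receptor, rose by 1.40 in HE2 and 5.04 in myeloid progenitors. Has2, which makes hyaluronan, rose by 1.20 in HE2, by 2.81 in progenitors and by 4.60 in myeloid progenitors.

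NF-κB drives Icam1, Vcam1 and the selectins in activated endothelium, so 11 tested genes that cytokines induce through it were read too. Irf1 fell by 1.33 in HE and 1.17 in progenitors. Cxcl1, a chemokine, rose by 1.44 in HE2 and 1.76 in myeloid progenitors, and Relb, an NF-κB subunit, rose by 2.16 in myeloid progenitors. The median change of the list was -0.46 in HE and 0.51 in myeloid progenitors, where the median of all genes was -0.01 and -0.02. In HE2 it was 0.03, compared with -0.03 over all genes, and in progenitors -0.06, compared with -0.04.

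**Figure D4:**
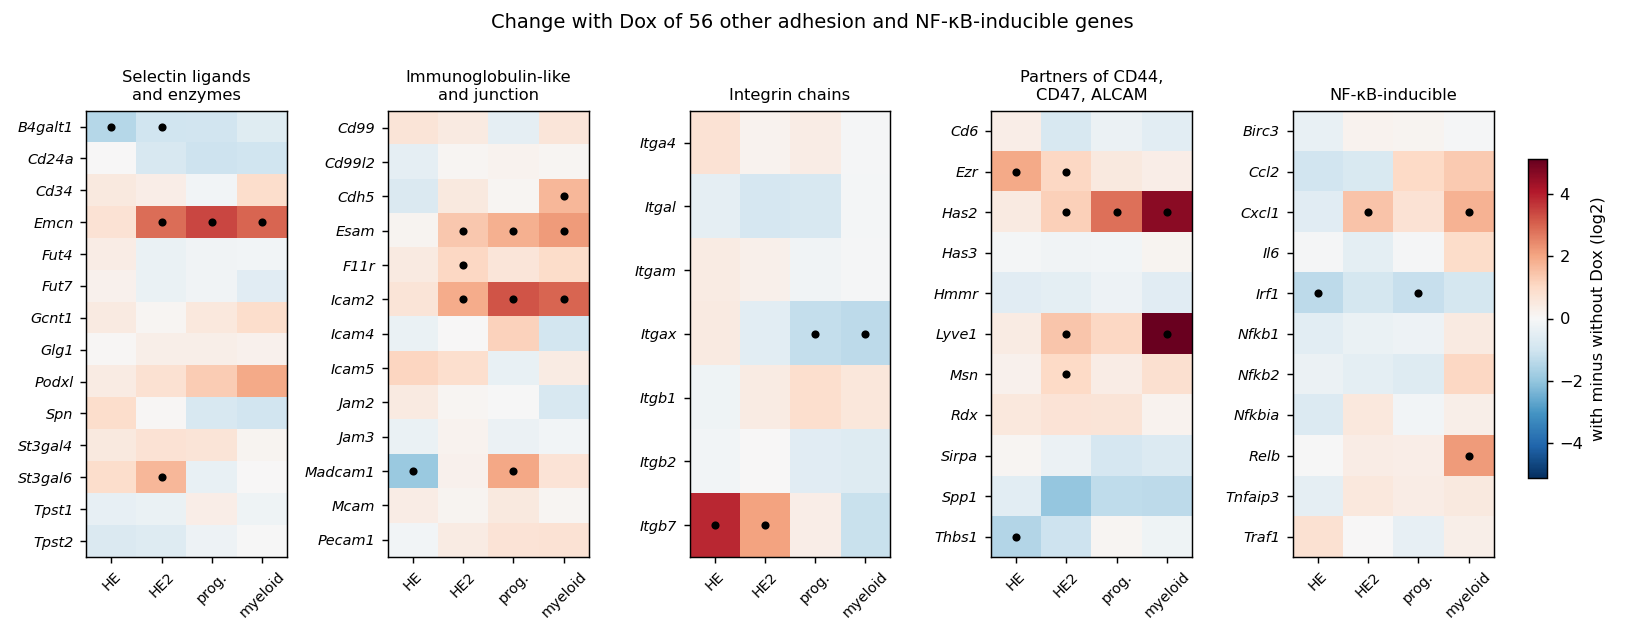
Change with Dox (log2, red higher and blue lower with Dox) of the 56 tested genes of the 5 lists in the 4 stages along the x axis of each panel; black dots passed the threshold. Icam2, Esam and Emcn rose in HE2, progenitors and myeloid progenitors, and the integrin chains other than Itgb7 and Itgax passed in none.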

How the data were processed

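RNA from the sorted or floating cells was measured on 23 1-colour Agilent arrays. The authors scanned them and deposited spot intensities from Feature Extraction (version 10.7.3.1 per the file headers, 10.7.1.1 per the labels), and also deposited a table of normalized log2 values. The deposited scanner files also hold flags of another kind, 0 or 1 per spot, for outliers, saturation and signal well above background. The deposited log2 values, made by the authors in limma, served as an alternative only.

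Median intensities were corrected with normexp (offset 16) in limma 3.58.1 under R 4.3.3. Control spots and outlier flags were removed, and all arrays were quantile normalized. Accessions were named through the RefSeq table of GRCm38.p6, and the brightest probe stood for a gene. Genes reaching 6.5 on at least 1 array were fitted with lmFit and eBayes on 22 arrays in 8 groups (14 residual degrees of freedom), with Benjamini-Hochberg adjustment over all genes tested. The pipeline was tested on simulated data. Precision is limited by how few arrays each group has. A bound for a gene not well above background in a group used, per array, the higher of its own signal and the lowest signal well above background. It compares group means and leaves out the spread between arrays.

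Besides the members, up to 2 rising and 2 falling called genes per list and comparison with Dox were named, together with markers and the 3 genes most like each member called with Dox. The members and lists were chosen with earlier results of these data known, and 1 gene of the lists is not reported here. As numbered, same-numbered arrays deviated together in all 3 pairs only between uninduced HE and HE2 (correlations 0.394 to 0.797), so the numbers pair those arrays. With the uncertain induced numbers 2 and 3 exchanged, the 3 pairs of uninduced and induced HE2 did so too (0.361, 0.488 and 0.609). Those of myeloid progenitors were then 0.211, 0.265 and 0.127, whereas those of HE were -0.056, -0.361 and -0.204. The main fit used no pairing. Alternatives covered background correction, scaling, filters, probes, thresholds, blocks and arrays left out.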

Additional observations from a re-analysis of the deposited data

Results flagged for a closer look

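The response of Cd44 to Dox differed between stages. Cd44 fell by 1.80 in HE, whereas in myeloid progenitors the difference was 0.06, and the interaction term between them was 1.86 (log2; SE 0.317; unadjusted P = 1.63e-05, adjusted P = 0.00118 in limma). It was past the threshold in every alternative in which it could be fitted and without any single array. Myeloid progenitors were all on slide 3 and HE on slides 1 and 2, so slide, medium and length of induction cannot be told apart from stage.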

How the results depend on the processing

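Of 22 changes of members past the threshold, 7 were past it in every setting run: Cd44 with Dox in HE, its interaction between myeloid progenitors and HE, Selp from HE to HE2 without Dox, Selplg from HE2 to progenitors and Alcam from progenitors to myeloid progenitors, the last 2 both with and without Dox. None of the 22 reversed. The 2-fold limit alone drops the limit on P, so it could end no call. Leaving out an array from outside a comparison could alter only its P value, not its change. Leaving out 1 array gave 4 to 8 called changes with Dox (7 with all arrays), 5 to 8 for steps without Dox (8), 4 to 6 for steps with Dox (6), 1 for interactions (1) and 30 to 37 for the other lists (34).

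With only the groups of a comparison fitted, 4 changes with Dox, 5 steps without Dox and 3 steps with Dox were called. Of the 4, 2 were among the 7 called with all arrays, and the others were Icam1 and Vcam1 in myeloid progenitors. Among changes with Dox, the calls lost were Cd47 in HE (adjusted P = 0.0288) and HE2 (0.0292) and Cd44 in HE2 (0.086). Also lost were Cd44 (0.139) and Selplg (0.222) in progenitors. Steps lost from HE2 to progenitors without Dox were Cd44 (0.0304), Selp (0.0418) and Vcam1 (0.0514). Steps lost with Dox were Selp from HE to HE2 (0.123) and Cd44 from HE2 to progenitors (0.182). Selp from progenitors to myeloid progenitors with Dox (0.0464) was lost too. The mean of all probes gave 3 changes with Dox and 2 interactions, 75th percentile scaling 6 changes with Dox, 6 steps without Dox, 4 steps with Dox and 2 interactions, and a 2-fold limit alone 13 changes with Dox and 6 interactions. An adjusted P of at most 0.05 alone gave 2 interactions and 55 changes in the other lists. The slide block, the scan day block, an offset of 50 and the authors' log2 values each gave 5 changes with Dox. The 75th percentile scaling moved the median of all genes by up to 0.22.

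With the replicate block, 7 changes with Dox, 7 steps without Dox, 5 steps with Dox and 2 interactions were called. It ended the call of Selp from HE2 to progenitors without Dox (1.07, adjusted P = 0.0345) and from progenitors to myeloid progenitors with Dox (-1.08, adjusted P = 0.0213), and called the interaction of Cd47 (-1.08, adjusted P = 0.0188). It changed no other call. With induced numbers 2 and 3 exchanged, chosen after seeing the data, the counts were 7, 7, 6 and 1.

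Changes that turned sign were all below the threshold. Alcam with Dox in progenitors was -0.03 and Cd44 in myeloid progenitors -0.07 under 75th percentile scaling, and Cd44 was -0.06 with the mean of all probes. Selplg in HE was -0.15 with the mean of probes and -0.03 with the slide block. Vcam1 in progenitors was 0.52 with the slide block, 0.57 with the scan day and 0.10 with the additional array. With 1 array left out, Alcam ranged from -0.34 to 0.31 in HE and -0.46 to 0.54 in progenitors, Selplg from -0.14 to 0.29 in HE, Vcam1 from -0.91 to 0.19 in HE and -0.73 to 0.57 in progenitors, and Cd44 from -0.04 to 0.12 in myeloid progenitors. The causes were not tested. Sele, Vcam1 in uninduced myeloid progenitors and the dimmer probes lie near background, which limits what they can show.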

Other observations

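The additional array of uninduced progenitors, which was kept out of the tests, read 8.69 for Icam1, 5.99 for Vcam1, 8.70 for Selp, 4.85 for Sele, 8.93 for Selplg, 11.43 for Cd44, 12.71 for Cd47 and 6.56 for Alcam. Vcam1, Selp, Selplg, Cd44 and Cd47 lay below both uninduced progenitor arrays of the fit. Icam1 and Alcam lay between them, and Vcam1 and Sele were not well above background.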
